A study of Mus musculus with 6 samples.

Results

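Interferon-induced genes and the interferon regulatory factors (IRFs) were examined in testis RNA of WT and Trf2-/- mice. Genes were taken by name from the deposited table of read counts: every protein-coding gene whose symbol begins with Ifi and a digit, Ifit, Ifih, Irf and a digit, Irgm, Oas, Gbp, Igtp, Iigp, Isg, Mx and a digit, Tgtp, Rsad2, Usp18 or Ddx58. The rule used no measured value and took 65 of 26743 genes, of which 19296 were protein-coding. It also takes a few genes by name alone, among them Irf2bp1 and Irf2bp2, which encode partners of IRF2 and not IRFs. The samples were whole testes of 3 WT mice and of 3 Trf2-/- mice, all at 21 days of age, and each library came from a separate animal. Trf2 (TBP-related factor 2, listed as Tbpl1) is a relative of the TATA-box binding protein, and the mutant mice lack a functional copy of it. Mutant males are sterile because their spermatids fail to elongate, and the study sampled at 21 days, when round spermatids have appeared but are not yet lost. The strain and litters of the mice sampled here were not given in the sources used, since the 129/SvPas background in the methods is stated for the tagged Trf2 line.

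Each library held between 15187062 and 29859347 reads counted on genes, and Trf2-/- mouse 3 had the fewest. Levels are given as CPM, counts per 1000000 counts on TMM-scaled library sizes. A gene with 0 counts could still have a true level of 3 counts, which is 0.105 to 0.144 CPM for WT libraries and 0.119 to 0.19 CPM for mutant libraries, a limit that takes in counting error alone. For Tbpl1, 8840, 7391 and 6119 counts were found in WT against 1586, 1500 and 882 in Trf2-/- mice. Its log2 fold change was -2.27 (adjusted p = 1.18e-06, edgeR). All 10 germ cell, 7 Sertoli cell, 6 Leydig cell and 4 peritubular cell markers fixed for the check of the tissue passed the filter on low counts, as did all 12 macrophage markers, whereas 10 of 12 lymphocyte and NK cell markers did not. RNA of all these cells was read together, so fewer cells of a type and less RNA per cell cannot be told apart.

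Interferons are cytokines that cells release on infection and that act through receptors on neighbouring cells. Type I interferons activate the kinases Jak1 and Tyk2 and a complex of STAT factors with Irf9, which binds the interferon-stimulated response element (ISRE). Interferon gamma activates Jak1 and Jak2 and a STAT dimer, which binds the gamma-activated site (GAS) and induces Irf1, itself a factor that binds ISRE-like sequences. Target genes include the antiviral IFIT, OAS and Mx proteins, typical of type I interferons, and the immunity-related and guanylate-binding GTPases, which are induced most strongly by interferon gamma and attack the vacuoles of intracellular microbes. The testis is an immune-privileged organ whose macrophages lie mainly in the interstitium outside the seminiferous tubules.

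Of 48 members with a matched promoter window, 25 held letters of the ISRE, 17 those of GAS and 9 both. The promoters of 4 members that rose are shown here (Igtp, Irgm2, Irgm1 and Gbp7). Tgtp1 and Tgtp2, which were not tested, are added because they hold the same arrangement as Igtp and Irgm2, Ifit1 is added as a promoter with ISRE matches alone, and Irf1, which also rose, as a promoter with a GAS match alone. Sequences are from RefSeq on build GRCm38.p6, which is not the build of the count table, and are written 5′ to 3′ on the strand of the gene. Capitals mark matches to the ISRE core GAAANNGAAA (or its reverse complement) and to GAS, written TTCNNNGAA. The Igtp stretch is chr11:58199456-58199555 on the plus strand, that of Irgm2 is chr11:58214877-58214976 on the plus strand, that of Tgtp1 is chr11:48992247-48992346 on the minus strand and that of Tgtp2 is chr11:49064213-49064312 on the minus strand. Irgm1 is shown from chr11:48871421-48871520 on the minus strand, Gbp7 from chr3:142530216-142530335 on the plus strand, Ifit1 from chr19:34640769-34640888 on the plus strand and Irf1 from chr11:53769914-53770013 on the plus strand. In Igtp, Irgm2, Tgtp1 and Tgtp2 the GAS match is followed after 2 bases by the ISRE core, in Irgm1 ISRE matches overlap, and in Gbp7 a pair of GAS matches precedes an ISRE core on the reverse strand.
Igtp: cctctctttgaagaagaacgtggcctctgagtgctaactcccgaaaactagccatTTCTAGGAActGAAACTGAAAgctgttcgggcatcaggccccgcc
Irgm2: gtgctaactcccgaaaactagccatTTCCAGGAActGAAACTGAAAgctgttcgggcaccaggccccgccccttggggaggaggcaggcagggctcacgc
Tgtp1: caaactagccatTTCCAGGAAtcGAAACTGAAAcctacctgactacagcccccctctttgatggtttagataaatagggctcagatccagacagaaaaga
Tgtp2: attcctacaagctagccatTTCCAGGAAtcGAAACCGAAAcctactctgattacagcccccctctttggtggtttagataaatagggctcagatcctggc
Irgm1: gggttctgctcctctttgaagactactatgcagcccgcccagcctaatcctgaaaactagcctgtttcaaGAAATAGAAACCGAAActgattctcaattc
Gbp7: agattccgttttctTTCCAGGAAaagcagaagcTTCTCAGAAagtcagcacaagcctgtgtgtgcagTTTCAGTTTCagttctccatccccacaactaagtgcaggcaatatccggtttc
Ifit1: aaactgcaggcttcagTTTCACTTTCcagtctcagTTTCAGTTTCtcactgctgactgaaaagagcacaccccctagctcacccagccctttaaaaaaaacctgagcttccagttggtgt
Irf1: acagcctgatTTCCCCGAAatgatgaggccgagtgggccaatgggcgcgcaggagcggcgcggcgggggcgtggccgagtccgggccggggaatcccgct

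Trf2-/- testis held more RNA of the immunity-related GTPases, of several guanylate-binding proteins and of Irf1, Ifi30 and Ifitm3. Irf3 was only slightly higher, while the testis-expressed Ifitm7 was lower. Of the 65 members 51 passed the filter on low counts and were tested, and 17 of them rose (quasi-likelihood test of edgeR, adjusted p below 0.05). That is 33.3% of the tested members and 26.2% of all members, where 11.2% of all tested genes rose. Ifitm7 alone fell, whereas 20.2% of all tested genes fell. The median log2 fold change was 0.53 over tested members and 0.04 over all tested genes, and 48 of the 51 values were above 0 (94.1%, against 54.9% of all tested genes). With library size alone in place of TMM the median of all tested genes moved to 0.13, the share of calls that were lower went from 64.4% to 38.7% over all genes, and 22 members rose where 25.2% of all genes did.

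Increases were mostly below 2-fold. Only Iigp1, Ifi47, Igtp and Irgm1 rose at least 2-fold, 7.84% of tested members against 0.609% of all tested genes. Ifitm7 fell at least 2-fold, as did 4.3% of all tested genes. In 20 tested members each Trf2-/- mouse lay above each WT mouse (39.2%, against 22.3% of all tested genes). In Ifitm7 alone each lay below, against 26.8% of all tested genes. The number of members that rose was 28 without Trf2-/- mouse 3, 10 without Trf2-/- mouse 1, 9 without Trf2-/- mouse 2, 7 without WT mouse 1 and 11 without WT mouse 2 or without WT mouse 3. Of the 17 that rose with all mice, 16, 10, 9, 6, 9 and 9 kept their call in this order of mice left out. Gbp8, not tested with all mice, was added without Trf2-/- mouse 3 and without WT mouse 1, 2 or 3. It passed the filter there only through the mutants. The shares of all tested genes that rose were 11%, 6.86%, 8.96%, 4.57%, 4.54% and 6.75% in the same order of mice left out. Fewer genes thus rose over the whole table as well in most of these fits. DESeq2's Wald test called 12 members higher and 1 lower, where it called 8.07% of all genes higher. Of these 12, 11 were among the 17, and the other was Gbp8. At an unadjusted p under 0.05 in edgeR 25 members were higher.

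**Figure D1:**
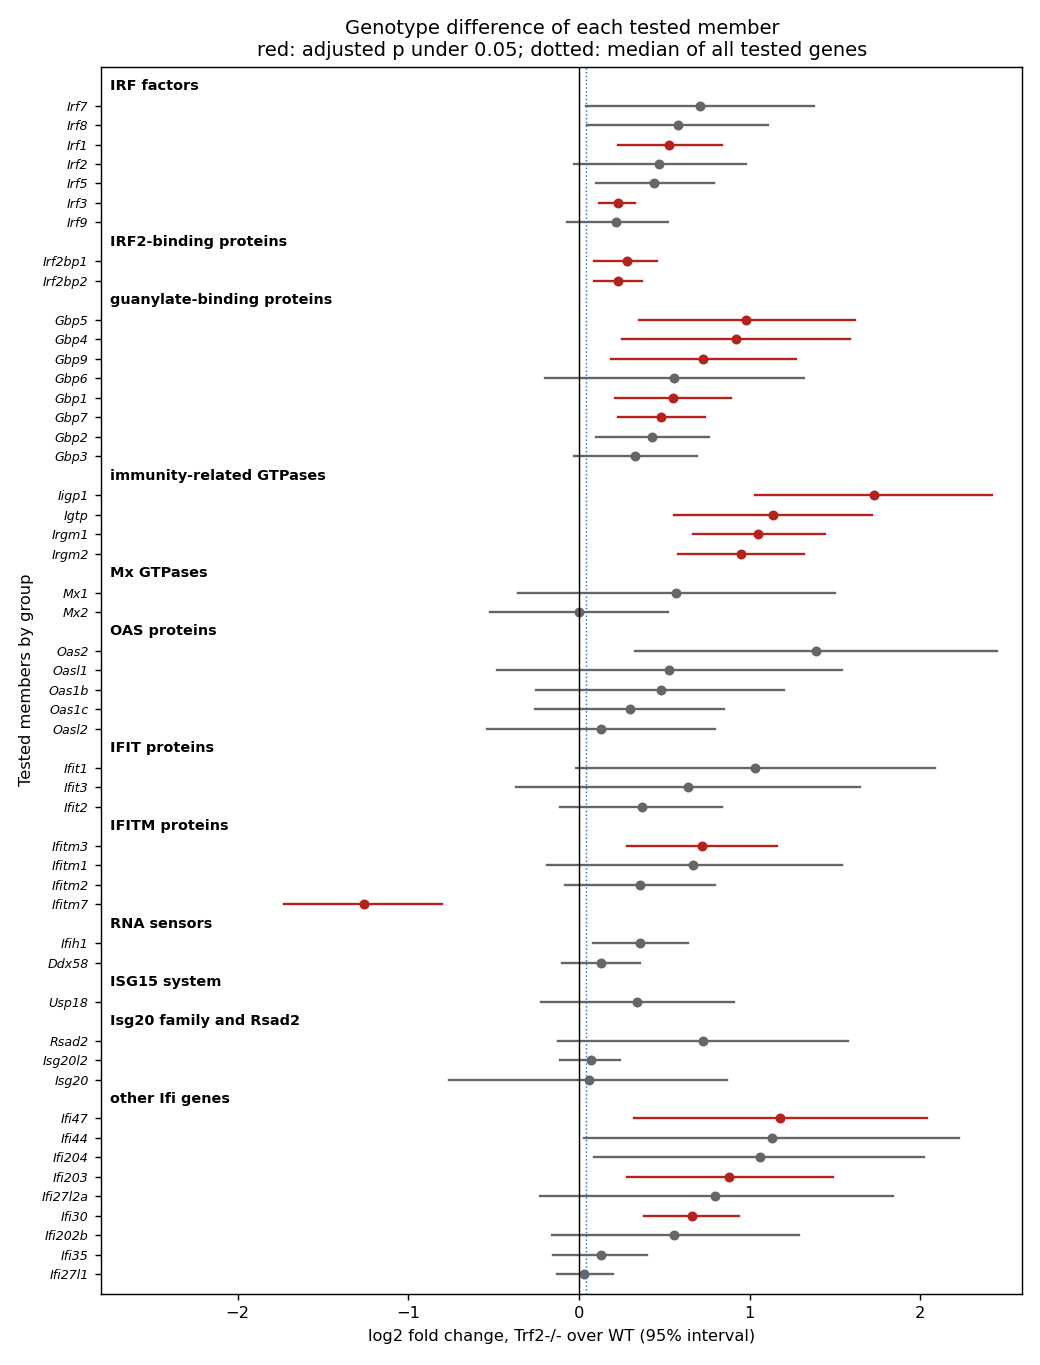
Log2 fold change of 50 tested members, Trf2-/- over WT, with its 95% interval, grouped by role. Points lie right of 0 for 48 of the 50 members; red marks an adjusted p under 0.05 and the dotted line is the median of all tested genes, 0.04.

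Members were weakly expressed in the WT testis. Per kilobase of gene length the mean WT level ran from 0.00395 to 34.2 RPKM (CPM divided by the deposited gene length in kilobases), with a median of 0.671 RPKM, against a median of 6.5 RPKM over all tested genes. The level was under 1 RPKM in 39 members and above 10 RPKM in 8. The 65 genes together took between 0.0393% and 0.0558% of the counts of a mouse. The highest levels per length were those of Ifi27l1 (34.2 RPKM), a relative of an interferon-induced mitochondrial protein, and of Irf3 (32.1 RPKM), followed by Isg20l2, an exonuclease relative, at 15.3 RPKM. All 14 members that were not tested had between 2 and 51 counts over the 6 mice together. They were Irf4, Gbp8, Gbp10, Gbp11, Tgtp1, Tgtp2, Oas1a, Oas1e, Oas1g, Oas3, Ifitm5, Ifitm6, Isg15 and Ifi205. Of the tested members, 48 exceeded the filter's limit of 0.424 CPM in each WT mouse and 3 did not.

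The immunity-related GTPases (IRGs), which assemble on the vacuoles of intracellular microbes, showed the largest ratio of summed levels between genotypes of all role groups. The 6 IRG members summed to 8.57, 12.4 and 10.2 CPM in WT and to 25.9, 29.8 and 20.6 CPM in Trf2-/- mice. These ranges do not overlap, and the ratio of the means was 2.45. All 4 tested IRG members rose, with a median log2 fold change of 1.10.

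Iigp1, an effector IRG that coats microbial vacuoles, had 60, 127 and 51 counts in WT mice 1 to 3 and 244, 309 and 128 counts in Trf2-/- mice 1 to 3. Mean levels were 3.13 ± 1.51 CPM (SD, n = 3) for WT and 10.3 ± 2.64 CPM (SD, n = 3) for the mutants. The lowest mutant (8.09 CPM) lay above the highest WT mouse (4.86 CPM), and the log2 fold change of 1.73 (SE 0.31, adjusted p = 0.00322, edgeR) was the largest of any tested member. Igtp, a regulatory IRG of the GMS type, had 54, 42 and 49 counts in WT and 118, 121 and 43 counts in Trf2-/- mice. Trf2-/- mouse 3 had the fewest reads of all libraries, and after scaling its 2.72 CPM lay just above the highest WT mouse at 2.35 CPM, while the other mutants had 4.68 and 5.19 CPM. The log2 fold change of Igtp was 1.14 (SE 0.26, adjusted p = 0.00991).

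Irgm1 and Irgm2, regulatory IRGs that keep the effector IRGs inactive on host membranes, separated the genotypes more evenly. Irgm1 had 2.58, 3.33 and 2.54 CPM in WT and 6.47, 6.05 and 4.99 CPM in Trf2-/- mice, a log2 fold change of 1.05 (SE 0.17, adjusted p = 0.00202). Irgm2 had 1.92, 2.49 and 2.59 CPM in WT and 4.48, 4.59 and 4.36 CPM in Trf2-/- mice, a log2 fold change of 0.95 (SE 0.16, adjusted p = 0.00277). For Irgm2 the mutants differed by an SD of only 0.113 CPM. Iigp1, Igtp, Irgm1 and Irgm2 kept an adjusted p under 0.05 in all 12 alternative fits, those without each mouse included.

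Tgtp1 and Tgtp2 are near-identical IRGs whose transcripts share 85.3% and 90.6% of their 50-base stretches with other genes, mainly each other, so reads of this length cannot be assigned to either with certainty. Neither passed the filter. Summed over the pair, the counts were 3, 3 and 5 in WT and 15, 18 and 7 in Trf2-/- mice, and the mutant levels of 0.595, 0.772 and 0.442 CPM all lay above the highest WT level of 0.24 CPM. By comparison, 9.64% of the stretches of Igtp, 6.83% of Irgm2, 2.95% of Iigp1 and 0.0869% of Irgm1 occur in another gene's transcript.

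**Figure D2:**
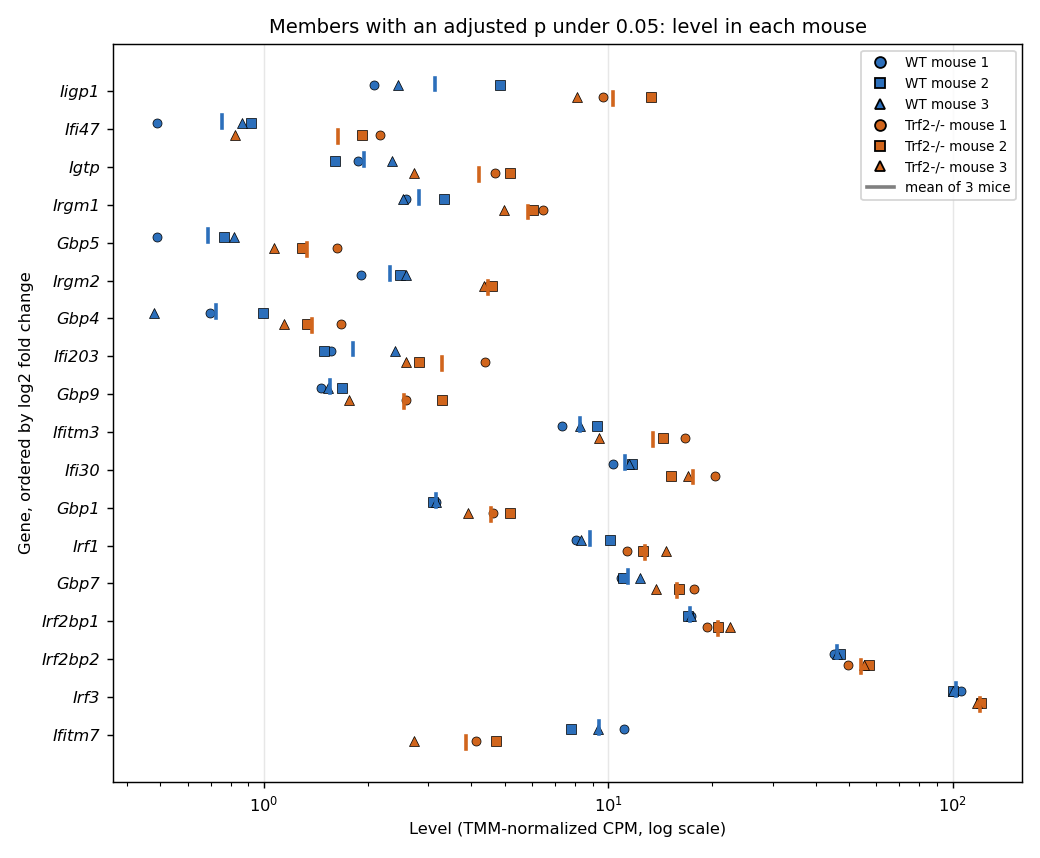
Level of each of the 18 members with an adjusted p under 0.05 in each mouse, in TMM-normalized CPM on a log axis, ordered by log2 fold change; blue is WT, orange is Trf2-/-, and vertical bars are means of 3 mice. Orange symbols lie right of blue ones in 16 of the 17 members that rose, with Trf2-/- mouse 3 of Ifi47 (0.822 CPM) inside the WT range, and left of them in Ifitm7.

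The guanylate-binding proteins (GBPs), large GTPases that lyse microbial vacuoles and trigger inflammasomes, were also higher, but by less than the IRGs. The 11 GBP members summed to 27.3, 31.4 and 30.7 CPM in WT and to 43.2, 45.8 and 37 CPM in Trf2-/- mice, a ratio of means of 1.41. All 8 tested GBPs had a positive log2 fold change, with a median of 0.56, and 5 of them passed the test. Of these 5, only Gbp7 kept its call without Trf2-/- mouse 1 or 2, and none did without WT mouse 1. Gbp4 alone kept it without WT mouse 2, and Gbp5 and Gbp7 did without WT mouse 3. Without Trf2-/- mouse 3 all 5 kept it and Gbp2 was added. Gbp8, not tested with all mice, was also called without Trf2-/- mouse 3 and without WT mouse 1, 2 or 3. In these fits it passed the filter only through the mutants, where it was higher, so these calls carry no weight. DESeq2 kept Gbp7 alone of the 5 and also called Gbp8.

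Gbp7 had 312, 287 and 258 counts in WT and 446, 374 and 218 in Trf2-/- mice. Its levels of 10.9, 11 and 12.4 CPM in WT and 17.7, 16 and 13.8 CPM in Trf2-/- mice did not overlap (log2 fold change 0.48, SE 0.11, adjusted p = 0.0119), but the adjusted p rose to 0.0539 without WT mouse 1 and to 0.0546 without WT mouse 2. Gbp1, now named Gbp2b in RefSeq, had 3.17, 3.1 and 3.17 CPM in WT and 4.64, 5.19 and 3.92 CPM in Trf2-/- mice (log2 fold change 0.55, SE 0.15, adjusted p = 0.023). Its WT mice were nearly equal and each mutant lay above them, yet the call was lost in DESeq2 and without any mouse other than Trf2-/- mouse 3, with an adjusted p of up to 0.085.

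Gbp5, a GBP known for its part in inflammasome assembly, had only 14, 20 and 17 counts in WT and 41, 30 and 17 in Trf2-/- mice (log2 fold change 0.98, SE 0.28, adjusted p = 0.0277). Gbp4 had 20, 26 and 10 counts in WT and 42, 31 and 18 in Trf2-/- mice (log2 fold change 0.92, SE 0.30, adjusted p = 0.0431). Gbp9 had 42, 44 and 32 counts in WT and 65, 77 and 28 in Trf2-/- mice (log2 fold change 0.73, SE 0.24, adjusted p = 0.0455). In all 3 genes the scaled values of the genotypes did not overlap, yet the counts were low, and each lost its adjusted p under 0.05 when Trf2-/- mouse 1 or 2 or WT mouse 1 was left out.

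Gbp3, the GBP with the highest level per length (2.34 RPKM in WT), did not pass. It had 6.52, 8.46 and 7.72 CPM in WT and 7.86, 11.2 and 9.48 CPM in Trf2-/- mice, and its log2 fold change was 0.33 (95% interval -0.03 to 0.69, adjusted p = 0.139). The genotypes overlapped in Trf2-/- mouse 1. Gbp2 (0.43, adjusted p = 0.0512) and Gbp6 (0.56, adjusted p = 0.231) also missed the threshold, and 80% of the 50-base stretches of Gbp6 occur in a related gene, mainly Gbp10. Gbp8, singled out after its values were seen, had 5, 3 and 1 counts in WT and 19, 14 and 6 in Trf2-/- mice and was below the filter.

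Among the IRFs, Irf1 and Irf3 rose, and the 9 genes together had 147, 150 and 144 CPM in WT and 174, 184 and 180 CPM in Trf2-/- mice. This sum was mostly Irf3, the sensor-activated factor that switches on interferon beta. Irf3 had 106, 100 and 100 CPM in WT and 120, 121 and 118 CPM in Trf2-/- mice, a small difference (log2 fold change 0.23, SE 0.05, adjusted p = 0.00582) that was large against the spread among mice of a genotype. Markers of Sertoli cells and of germ cells, given below, had median log2 fold changes of 0.19 and 0.20. The Irf3 exons share 2.76% of their bases with Bcl2l12 on the opposite strand, which fell (log2 fold change -0.54, adjusted p = 0.000522).

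Irf1, the factor that carries the second wave of the interferon gamma response, had 8.05, 10.1 and 8.35 CPM in WT and 11.3, 12.6 and 14.7 CPM in Trf2-/- mice. Its genotypes did not overlap, and Trf2-/- mouse 3, low for most members, was the highest (log2 fold change 0.53, SE 0.13, adjusted p = 0.0164). Without WT mouse 1 or WT mouse 3 Irf1 lost its adjusted p under 0.05, with values up to 0.0696. Irf2, which competes with Irf1 for its sites, had 1.57, 1.84 and 2.73 CPM in WT and 2.9, 2.83 and 2.65 CPM in Trf2-/- mice. WT mouse 3 reached the mutant range, and the log2 fold change of 0.47 (95% interval -0.03 to 0.98, adjusted p = 0.136) did not pass.

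Irf5, which drives inflammatory cytokines in myeloid cells, had 2.86, 3.64 and 2.97 CPM in WT and 4.56, 4.25 and 4.05 CPM in Trf2-/- mice. The genotypes did not overlap, but the log2 fold change of 0.44 (95% interval 0.10 to 0.79) had an adjusted p of 0.0552. Irf8, a factor of the macrophage and dendritic cell lineages, had 8.75, 9.65 and 5.61 CPM in WT and 10.1, 16 and 9.99 CPM in Trf2-/- mice (0.58, adjusted p = 0.0894). In both genes the lowest mutant lay only slightly above the highest WT mouse.

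Irf7, the factor that amplifies the type I response and is itself interferon-induced, had 2.06, 3.83 and 4.17 CPM in WT and 4.92, 7.29 and 3.92 CPM in Trf2-/- mice. Trf2-/- mouse 3 lay inside the WT range, and the log2 fold change of 0.71 (95% interval 0.04 to 1.38) had an adjusted p of 0.0986, or of 0.042 without that mouse. Irf9, the DNA-binding part of the complex with the STAT factors, had 15.8, 18 and 17.3 CPM in WT and 17.4, 18.2 and 24.5 CPM in Trf2-/- mice (0.22, adjusted p = 0.223). Its mutants 1 and 2 lay within or beside the WT range and mouse 3 lay above it.

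Irf4, a lymphocyte factor, had 16, 6 and 6 counts in WT and 14, 6 and 3 counts in Trf2-/- mice and was not tested. The IRF2-binding proteins, corepressors expressed in many tissues, both rose slightly. Irf2bp1 had 17.4, 17 and 17.4 CPM in WT and 19.4, 20.8 and 22.6 CPM in Trf2-/- mice (0.28, SE 0.08, adjusted p = 0.0291), and Irf2bp2 had 45.1, 47 and 46.2 CPM in WT and 49.8, 57.1 and 55.4 CPM in Trf2-/- mice (0.23, SE 0.06, adjusted p = 0.0244). Irf2bp1 lost its call without any WT mouse or without Trf2-/- mouse 2 or 3, and Irf2bp2 without any WT mouse or without Trf2-/- mouse 2.

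The IFITM proteins, small membrane proteins of which several block virus entry, moved in opposite directions. Ifitm3 had 7.32, 9.27 and 8.3 CPM in WT and 16.7, 14.4 and 9.42 CPM in Trf2-/- mice, a log2 fold change of 0.72 (SE 0.19, adjusted p = 0.022). Trf2-/- mouse 3 lay only just above WT mouse 2, and the call was lost without Trf2-/- mouse 1 or 2 or without WT mouse 1 or 3. Ifitm1 (0.67, adjusted p = 0.208) and Ifitm2 (0.36, adjusted p = 0.182) did not pass.

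Ifitm7, a family member that lies on chromosome 16 away from the Ifitm cluster on chromosome 7, was the only member that fell. It had 318, 203 and 195 counts in WT and 104, 110 and 43 counts in Trf2-/- mice, or 9.4 ± 1.65 CPM (SD, n = 3 mice) against 3.85 ± 1.03 CPM (SD, n = 3 mice). The ranges were far apart, and the log2 fold change of -1.26 (SE 0.20, adjusted p = 0.00215) held its adjusted p under 0.05 in all 12 alternative fits. On build NCBIM37 the gene spans chr16:13981795-13986948 on the minus strand, and 26.5% of its exon bases overlap 2900011O08Rik on the opposite strand. That gene also fell, from 261, 247 and 164 counts in WT to 104, 129 and 55 counts in Trf2-/- mice (adjusted p = 0.00285). Whether the counting used the strand is not given in the sources used here, and how far the overlap contributes was not tested.

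The classical antiviral groups did not reach the threshold. Of the 3 IFIT, 9 OAS and 2 Mx members, 10 were tested and none passed in edgeR, where Oas2 alone had an unadjusted p under 0.05, nor in DESeq2. Their median log2 fold changes were 0.64 for IFIT, 0.48 for OAS and 0.28 for Mx. Their intervals were wide. The 3 IFIT genes, which bind foreign RNA and block its translation, summed to 4.32, 5.48 and 5.66 CPM in WT and to 7.7, 10.3 and 4.11 CPM in Trf2-/- mice. Trf2-/- mice 1 and 2 lay above all WT mice and mouse 3 below all of them.

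Ifit2, the IFIT gene with the highest level per length, had 2.58, 3.33 and 3.74 CPM in WT and 4.48, 4.72 and 3.03 CPM in Trf2-/- mice (log2 fold change 0.37, 95% interval -0.11 to 0.84, adjusted p = 0.208). Ifit1, named after its values were seen, had 19, 24 and 19 counts in WT and 43, 62 and 8 counts in Trf2-/- mice (1.03, 95% interval -0.02 to 2.09, adjusted p = 0.121), the same order of mutants. Ifit3 shares 51.5% of its 50-base stretches with another gene and had 31, 32 and 21 counts in WT and 38, 68 and 9 counts in Trf2-/- mice.

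The OAS proteins, which sense double-stranded RNA and activate RNase L, and the Mx GTPases, which trap viral nucleocapsids, overlapped between genotypes in every tested member. Oasl2, the OAS member with the highest level per length, had 2.68, 4.48 and 5.18 CPM in WT and 3.65, 6.26 and 3.35 CPM in Trf2-/- mice (0.13, 95% interval -0.54 to 0.80, adjusted p = 0.764). Oas2, named after its values were seen, had 6, 12 and 12 counts in WT and 30, 33 and 7 counts in Trf2-/- mice (1.39, 95% interval 0.33 to 2.45, adjusted p = 0.0501). Oas2 thus had a large difference in mutants 1 and 2 and none in mutant 3, whose 0.442 CPM lay within the WT range of 0.209 to 0.576 CPM. Mx2 had 1.88, 2.6 and 2.54 CPM in WT and 2.34, 2.83 and 1.71 CPM in Trf2-/- mice (-0.00, 95% interval -0.52 to 0.52, adjusted p = 0.994), and 0.09 with library size alone.

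Neither sensor of viral RNA in the cytosol passed in edgeR or in DESeq2. Ifih1 (MDA5) had 8.22, 11.2 and 10.4 CPM in WT and 12.6, 12.5 and 13.1 CPM in Trf2-/- mice, with no overlap between genotypes, but its log2 fold change of 0.36 (95% interval 0.08 to 0.64) had an adjusted p of 0.0533. Ddx58 (RIG-I), with a log2 fold change of 0.13 and an adjusted p of 0.355, overlapped between genotypes. Ifih1 had an unadjusted p under 0.05 and an adjusted p under 0.05 when WT mouse 2 was left out. Isg15, the ubiquitin-like protein that is among the genes most strongly induced by type I interferons, had 4, 5 and 3 counts in WT and 6, 11 and 1 counts in Trf2-/- mice, too few to test. Usp18, which removes Isg15 from proteins, had 1.39, 2.07 and 2.06 CPM in WT and 1.71, 2.79 and 2.53 CPM in Trf2-/- mice (0.34, 95% interval -0.22 to 0.91, adjusted p = 0.315). Isg20l2 had 47, 43.1 and 43.1 CPM in WT and 44.9, 43.4 and 51.7 CPM in Trf2-/- mice (0.07, 95% interval -0.11 to 0.24, adjusted p = 0.527), and neither Isg20 (0.06, adjusted p = 0.914) nor the antiviral Rsad2 (0.73, adjusted p = 0.167) passed.

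Of the 10 remaining Ifi genes 9 were tested, all with a positive log2 fold change, and 3 passed. The number was 1, 2 and 7 when Trf2-/- mice 1, 2 and 3 were left out in turn, and 1, 1 and 2 for WT mice 1, 2 and 3. Ifi30, a lysosomal thiol reductase (GILT) that prepares antigens for MHC class II, had 296, 305 and 239 counts in WT and 515, 354 and 271 counts in Trf2-/- mice. Its levels of 10.3, 11.7 and 11.5 CPM in WT lay below all mutants at 20.4, 15.2 and 17.1 CPM (log2 fold change 0.66, SE 0.12, adjusted p = 0.00396), also in each of the 12 alternative fits. Ifi47 (IRGD), which belongs to the IRG family by sequence and is grouped here by its name, had 14, 24 and 18 counts in WT and 55, 45 and 13 counts in Trf2-/- mice (1.18, SE 0.38, adjusted p = 0.0428).

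Trf2-/- mouse 3 of Ifi47 lay inside the WT range, and its adjusted p rose above 0.05 when any of the other 5 mice was left out. Ifi203, a DNA-binding PYHIN protein, had 45, 39 and 50 counts in WT and 111, 66 and 41 counts in Trf2-/- mice (0.88, SE 0.27, adjusted p = 0.0345), and lost its call without Trf2-/- mouse 1 or without WT mouse 1 or 2. Ifi27l1 had 32.9, 38 and 34.7 CPM in WT and 35.7, 38.2 and 34.2 CPM in Trf2-/- mice. Its genotypes overlapped fully (0.03, 95% interval -0.13 to 0.20, adjusted p = 0.745). The other tested Ifi genes, Ifi44, Ifi204, Ifi27l2a, Ifi202b and Ifi35, had log2 fold changes of 0.13 to 1.13 and adjusted p-values of 0.0897 to 0.444.

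**Figure D3:**
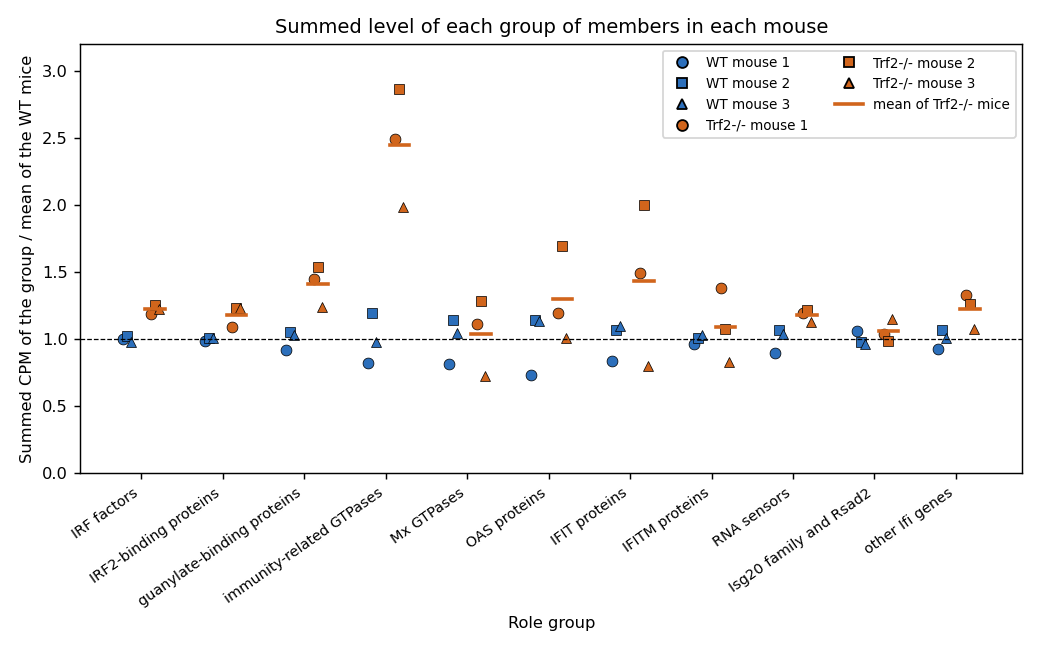
Summed CPM of each role group in each mouse, divided by the mean of the 3 WT mice, so that WT lies around 1; bars are means of the 3 Trf2-/- mice. The immunity-related GTPases reach 2.45 on average with all mutants far above WT, whereas Trf2-/- mouse 3 (triangle) lies below all WT mice for the IFIT, Mx and IFITM groups. The IFITM sum takes in Ifitm7, with 2.72 CPM in Trf2-/- mouse 3 against 11.1, 7.78 and 9.36 CPM in WT. The low IFITM sum of mouse 3 therefore does not describe Ifitm1, Ifitm2 and Ifitm3, none of which lay below all WT mice there.

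Mutant mice differed among themselves. Over tested members the median log2 ratio to the WT mean (after adding 0.1 CPM) was 0.52, 0.56 and 0.21 in Trf2-/- mice 1 to 3, against 0.01, 0.00 and 0.04 over all tested genes. Trf2-/- mouse 3 had the lowest value of its genotype in 37 of 51 members. It lay above all WT mice in 26 members, against 38 for mouse 1 and 43 for mouse 2, where the shares over all tested genes were 42.6%, 38.4% and 35%. Among WT animals mouse 1 was lowest in 33 of 51 members.

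The role groups showed this split to different degrees. Of the 12 tested GBP and IRG members, Trf2-/- mice 1, 2 and 3 lay above all WT mice in 10, 12 and 11. Of the 10 tested IFIT, OAS and Mx members they did so in 5, 9 and 1, and mouse 3 lay below all WT mice in 4. Over all tested genes the shares above all WT mice were 38.4%, 35% and 42.6% for Trf2-/- mice 1 to 3. The share below all WT mice was 36.3% for mouse 3, so 4 of 10 is near it. Without Trf2-/- mouse 3, 28 members rose, 15 of them at least 2-fold, and the median log2 fold change was 0.68. The 12 members added were Gbp2, Gbp8, Ifi202b, Ifi204, Ifi27l2a, Ifi44, Ifit1, Ifit3, Irf7, Oas1a, Oas2 and Rsad2, and only Irf2bp1 was lost. Of these, Gbp8 and Oas1a were not tested with all mice. In this fit they passed the filter only through the mutants, the group where they were higher, so their calls carry no weight. Trf2-/- mouse 3 was also the shallowest library, and whether the split comes from depth, from the animal or from the tissue was not tested.

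The ligands, receptors and sensors that stand above these genes in the pathway were read from lists of their own. Of the 21 ligand genes listed, 6 were in the table, Ifna12, Gm13280 (Ifna16), Ifnab, Ifne, Ifnk and Il28a, with 0 to 2 counts in each mouse, and none could be tested. Ifnb1 and Ifng were not analysed here. Of the 16 receptor, kinase, STAT and feedback genes all were tested, 2 rose, Jak2 (0.28, adjusted p = 0.00592) and Ptpn2 (0.23, adjusted p = 0.013), and the median was 0.16. This number was near the 11.2% of all tested genes that rose, and it was 1 without WT mouse 1 or WT mouse 2. None fell in edgeR, adjusted or at an unadjusted p under 0.05, nor in DESeq2. The receptor chains were Ifnar1 with a log2 fold change of 0.14, Ifnar2 with 0.28 (adjusted p = 0.0613), Ifngr1 with -0.16 and Ifngr2 with 0.17, none past the threshold. Jak1 had 0.17 (adjusted p = 0.0522), Stat2 0.05 (adjusted p = 0.518) and Tyk2 -0.01 (adjusted p = 0.912).

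Of 17 tested sensors and adaptors outside the name rule 4 rose and 1 fell, with a median of 0.24, where 11.2% of all tested genes rose. The number that rose was 1 without Trf2-/- mouse 1 or WT mouse 2, and 2 without Trf2-/- mouse 2 or WT mouse 3. The risen genes were Tlr8 (1.20, adjusted p = 0.0406), an endosomal receptor of RNA, Samhd1 (0.36, adjusted p = 0.0125), Eif2ak2 (0.31, adjusted p = 0.0142), which encodes the kinase PKR, and Trim25 (0.25, adjusted p = 0.0394). Dhx58 (LGP2), the third gene of the Ifih1 and Ddx58 family, had 1100, 871 and 705 counts in WT and 348, 478 and 178 counts in Trf2-/- mice. It fell by 1.20 on the log2 scale (adjusted p = 0.0015), whereas neither of these relatives passed the test.

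Further interferon-induced genes, which the name rule does not take, were given a list of their own. Of 41 such genes with counts, 34 were tested, 16 rose and 3 fell, with a median of 0.41, where 11.2% of all tested genes rose and 20.2% fell. The largest increases were those of Psmb8, an immunoproteasome subunit (1.42, adjusted p = 0.00658), B2m, the light chain of MHC class I (1.35, adjusted p = 0.0195), Tap1, a peptide transporter (1.16, adjusted p = 0.00501), Nlrc5, a transactivator of MHC class I genes (1.09, adjusted p = 0.00576), and Sp100, a nuclear body protein (0.96, adjusted p = 0.00897). The immunoproteasome subunit Psmb10 (0.12, adjusted p = 0.542) and the proteasome activators Psme1 (0.17, adjusted p = 0.157) and Psme2 (0.04, adjusted p = 0.694) did not pass. Epsti1 (-1.13, adjusted p = 0.00685), Herc6 (-0.52, adjusted p = 0.0237) and Daxx (-0.31, adjusted p = 0.00311) fell. The number that rose was 6, 10 and 8 without WT mice 1, 2 and 3, and 10, 9 and 19 without Trf2-/- mice 1, 2 and 3.

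Of the 12 macrophage markers, all tested, 5 rose (Lyz2, Emr1, C1qa, C1qb and Csf1r), Fcgr3 fell, and the median log2 fold change was 0.60, where 11.2% of all tested genes rose. The number that rose was 0 without WT mouse 2 or WT mouse 3 (edgeR, 8 at an unadjusted p under 0.05 with all mice, 4 in DESeq2), and 2 without WT mouse 1. Leaving out Trf2-/- mice 1, 2 and 3 in turn gave 3, 5 and 9. Their summed level was 263 to 288 CPM in WT and 467, 293 and 240 CPM in Trf2-/- mice 1 to 3, with mouse 3 below all WT mice. This sum takes in Fcgr3, which had 64.6, 65 and 63 CPM in WT and 23.5, 23.7 and 16.6 CPM in Trf2-/- mice. The low sum of mouse 3 therefore does not describe the other markers. The median ratio of the list to the WT mean was 0.99, 0.45 and 0.22 on the log2 scale in Trf2-/- mice 1 to 3, so mouse 3 was lowest as for the members, but mouse 1 exceeded mouse 2 by far, unlike in the members. Lymphocyte and NK cell markers summed to 3.79 to 5.23 CPM in WT and 2.87 to 5.67 CPM in Trf2-/- mice. Cd3g, Cd8a and Klrb1c had 0 counts in all WT mice and at most 3 in any mutant.

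For the other cells of the testis, 1 of 6 endothelial, 1 of 6 Leydig cell, 3 of 7 Sertoli cell (all 7 with the mutants above WT), 0 of 4 peritubular cell and 4 of 10 germ cell markers rose, with medians of 0.13, 0.27, 0.19, 0.19 and 0.20. Over all tested genes 11.2% rose, and in 22.3% each Trf2-/- mouse lay above each WT mouse. The endothelial and Leydig cell counts are near the share that rose. Of the peritubular markers 1 had an unadjusted p under 0.05 and none passed in DESeq2. The Leydig cell number was 0 when Trf2-/- mouse 1, WT mouse 1 or WT mouse 3 was left out, and the Sertoli cell number was 1 when WT mouse 1 was left out. The spermatid genes Acrv1 (-4.27, adjusted p = 0.000678) and Tssk2 (-2.49, adjusted p = 0.00624) fell. What share of the difference in the members goes with macrophages or with the makeup of the testis was not tested.

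**Figure D4:**
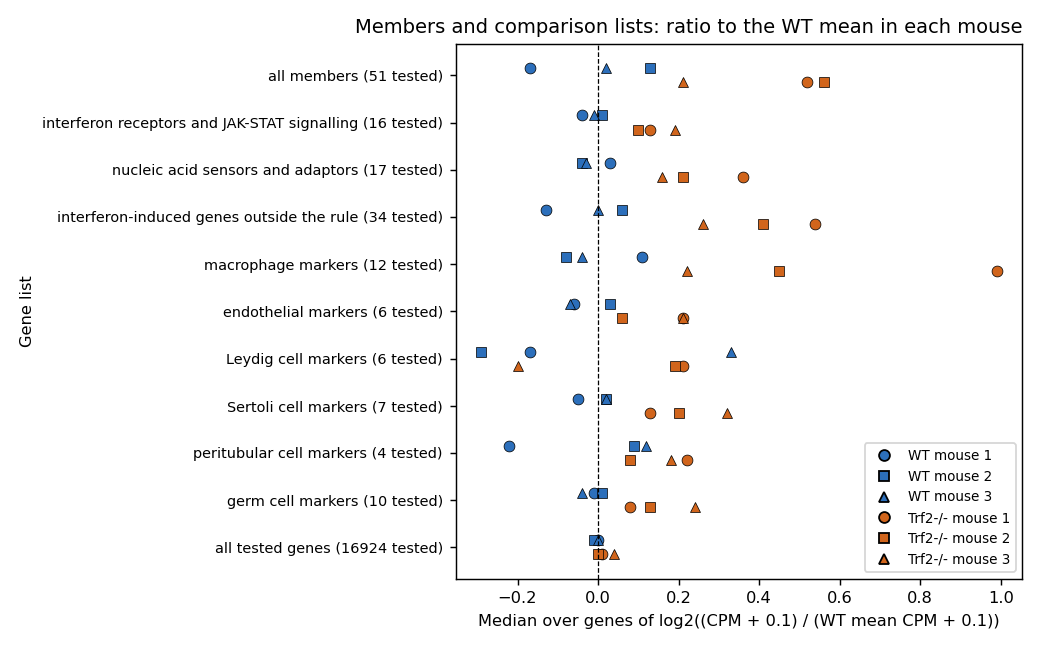
Median over the tested genes of each list of log2((CPM + 0.1)/(WT mean CPM + 0.1)), for each mouse. Members lie at 0.52, 0.56 and 0.21 in Trf2-/- mice 1 to 3 and macrophage markers at 0.99, 0.45 and 0.22, while all tested genes stay between -0.01 and 0.04.

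ISRE and GAS matches were frequent in the members' promoters. RefSeq windows of 300 bases, from 250 before to 50 after the annotated start of transcription, were matched for 48 members by symbol. Windows on chromosome 18 were left out, so Iigp1, the member with the largest log2 fold change, is not among them. On either strand the ISRE core occurred in 25 of them (52.1%), against 3.99% of the 27025 genes with a window outside chromosome 18. It occurred in 3.44% of 32851 windows, a count without that exclusion. The GAS letters occurred in 17 (35.4%), against 9.55% of genes, and both in 9. All 5 matched IRG and all 5 matched GBP promoters held an ISRE core, as did 4 of 6 OAS, 2 of 3 IFIT and both RNA sensor promoters, but only 1 of 8 IRF promoters, that of Irf2. GAS occurred in 4 of 5 IRG promoters and in 3 of 8 IRF promoters, those of Irf1, Irf2 and Irf8.

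The spacing printed above, GAS then 2 bases then the ISRE core, occurred in 5 of 32851 windows (0.0152%). These were Igtp, Irgm2, Tgtp1, Tgtp2 and Gm12185, all on chromosome 11, and they are paralogs with similar promoters, so they are not independent occurrences. The GAS match began 45 bases before the start in Igtp, 75 in Irgm2, 88 in Tgtp1 and 81 in Tgtp2. Of the 14 matched members that rose 8 held an ISRE core and 7 a GAS match, and of the 23 tested members that did not pass 10 held an ISRE core and 6 a GAS match. Of the 10 matched members that were not tested 7 held an ISRE core and 4 a GAS match. A match says only that the letters occur in the window.

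**Figure D5:**
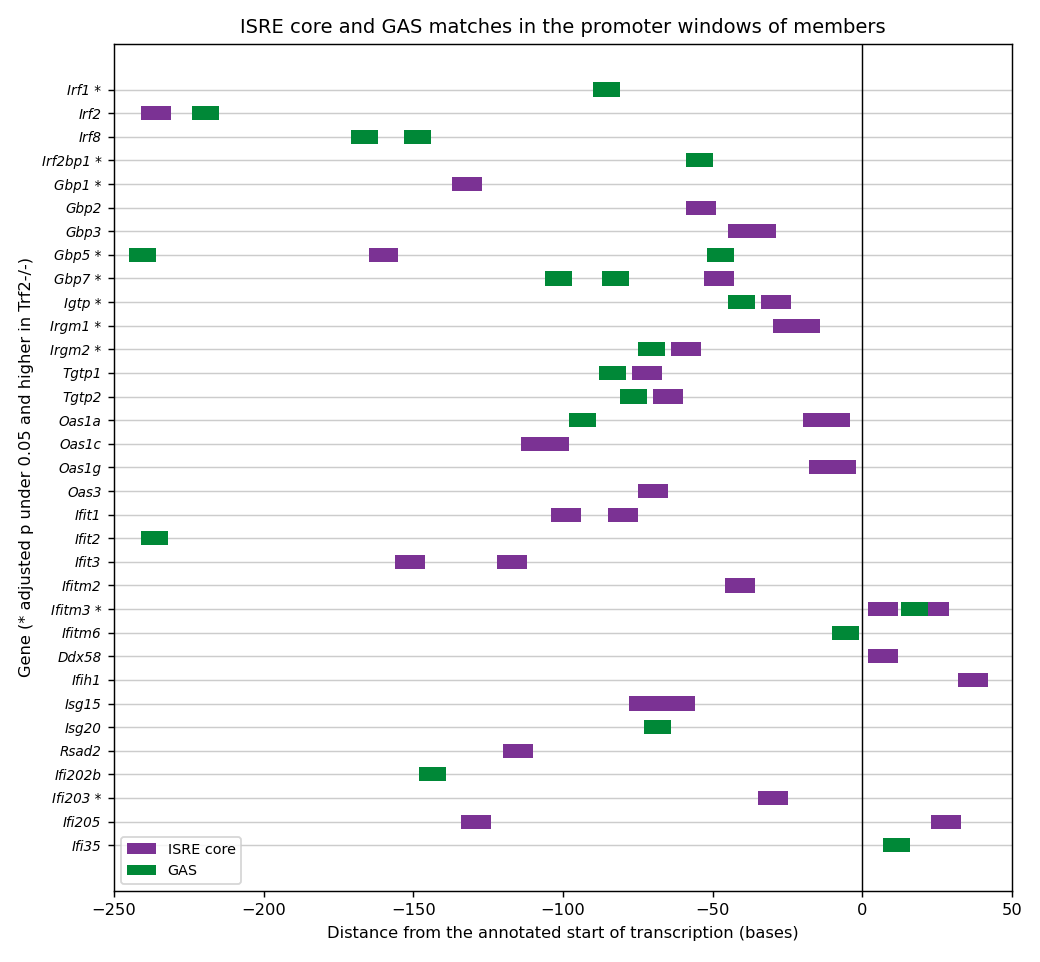
Position of ISRE core (purple) and GAS (green) matches in the 300-base promoter windows of members that hold at least 1 match, as distance in bases from the annotated start; asterisks mark members that rose. In Igtp, Irgm2, Tgtp1 and Tgtp2 the GAS match stands directly before the ISRE match, beginning 45, 75, 88 and 81 bases before the start.

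Members lie close together in the genome, so they are not independent of each other in sequence or position. On build NCBIM37, 43 of the 65 members fall into 11 clusters with gaps of less than 300000 bases, on a total of 15 chromosomes for all members. The cluster chr11:48675470-48910476 holds Irgm1, Tgtp1, Tgtp2 and Ifi47, and chr11:58013058-58036282 holds Igtp and Irgm2. All 4 tested genes of these clusters rose. The GBP cluster chr3:142159864-142300972 holds 5 tested genes, of which 3 rose, and chr5:105443172-105772948 holds 6 members, of which 3 were tested and 2 rose. By contrast, none of the 3 tested genes of the OAS cluster chr5:121180342-121357536 and none of the 3 genes of the IFIT cluster chr19:34625184-34724499 passed, as given above.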

How the data were processed

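Total RNA of whole testes was sequenced as single-end 50 base reads from stranded, ribosomal RNA-depleted libraries. The authors mapped reads to mm9 (NCBIM37), and the submitters' processing notes name CASAVA 1.8.2, TopHat2 2.0.10, Bowtie2 2.1.0, HTSeq 0.5.4p3 and DESeq2 1.0.19. The deposited raw counts of reads per gene were used. The 12 deposited columns of normalized values were not used. Strand setting, handling of multi-mapped reads and annotation release are not given in the sources used here.

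Counts were tested with edgeR 4.0.16 (R 4.3.3): filterByExpr, TMM factors, glmQLFit and glmQLFTest on genotype, with Benjamini-Hochberg adjustment over 16924 tested genes and a threshold of 0.05. Standard errors (SE) were derived from the fold change and the F statistic. The biological coefficient of variation was 0.0838. An exact permutation test of 3 against 3 mice cannot give a p under 0.1. Scripts were tested on simulated data. Chi-square per degree of freedom between replicates was at least 3.32, so no libraries were duplicates.

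Members, role groups and lists were chosen with earlier results of these data known. Values per mouse are given for members past the threshold, for the IRFs and for the member of each role group with the highest level per length; of the lists, up to 5 genes past the threshold per direction and the main receptors, kinases and STATs are named. A few genes that the rule would name are not reported here. Other genes given with values, and the promoters shown, were chosen after their values were seen. Alternatives were DESeq2 1.42.0 (size factors or Wald test), library size alone, other filters, a replicate block, an adjusted p of 0.01 and each mouse left out. Overlaps and shared 50-base stretches came from the NCBIM37 annotation.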

Additional observations from a re-analysis of the deposited data

How the results depend on the processing

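Leaving out each mouse in turn moved the number of members that rose from 17 to between 7 and 28, those that rose at least 2-fold from 4 to between 2 and 15, further interferon-induced genes from 16 to between 6 and 19, receptor and signalling genes from 2 to between 1 and 3, sensors and adaptors from 4 to between 1 and 5, and the median log2 fold change from 0.53 to between 0.42 and 0.68. The lowest count of members was without WT mouse 1 and the highest without Trf2-/- mouse 3. Of the 17 themselves, 6 and 16 kept their call in these fits, and the others counted were added there. Over all tested genes the share that rose moved from 11.2% to between 4.54% and 11%. With library size alone, 8 members rose at least 2-fold, 8 receptor and signalling genes rose and 7 sensors and adaptors rose. With no filter beyond 1 count, 8 members rose at least 2-fold and 4 receptor and signalling genes rose. At an adjusted p under 0.01, 6 members, 6 further interferon-induced genes, 1 receptor or signalling gene and 0 sensors or adaptors rose. The cause was not tested in these cases.

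Genes near 0 changed sign, with no call in any fit. Mx2 was 0.09 with library size alone and ranged from -0.19 to 0.15 with a mouse left out, 0.15 without Trf2-/- mouse 3, 0.08 without WT mouse 2 and 0.05 without WT mouse 3. Oasl2 ranged from -0.23 to 0.32, -0.23 without Trf2-/- mouse 2 and -0.11 without WT mouse 1, Ifi27l1 was -0.02 without either, and Isg20l2 ranged from -0.00 without Trf2-/- mouse 3 to 0.11 without WT mouse 1. Over 372 such values of 31 members, 297 kept direction and side of the threshold, 56 lost an adjusted p under 0.05, 10 gained it and 9 changed sign.

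Over all tested genes same-numbered mice did not deviate together (correlations of -0.0973, -0.0313 and -0.102 for numbers 1 to 3). Such correlations cannot exclude a shared litter or batch. Among the members, mouse 2 was the highest of its genotype in 27 of 51 in both WT and Trf2-/- mice. Whether the numbers pair the mice is not given, and the main fit did not pair them. With the replicate block 12 members rose, 1 fell and the median was 0.52. Low counts kept 14 members from being tested.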
